A study of Mus musculus with 32 samples.

Results

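Kidneys of miR-155-/- mice killed 72 h after cisplatin were compared with kidneys of miR-155-/- mice given saline, 4 mice against 4, which are 8 of the 32 arrays of the study. The groups were chosen by their labels alone. All mice were male and 12 to 16 weeks old. The treated mice received 20 mg/kg cisplatin as 1 dose, and their saline-injected controls are the 0 h group of the labels. Every mouse of both groups carried the targeted allele B6.Cg-Mir155tm1.1Rsky/J, a line obtained from the Jackson Laboratory, so miR-155 was missing from control and treated kidneys alike. Age-matched wild type C57BL/6 mice from Charles River, killed 72 h after the same dose (4) or after saline (4), and miR-155-/- mice killed at 48 h (4) were used to see where the 72 h response differed. Because the wild type mice came from another supplier, genotype and source colony cannot be told apart. RNA came from whole homogenised kidney, so that fewer cells of a type and less RNA per cell cannot be told apart in any result given here. Per the labels, the RNA samples came from independent animals.

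Cisplatin is taken up by proximal tubule cells through organic cation transport and crosslinks DNA, which activates p53 and leads to tubular injury, inflammation and acute kidney failure within days. miR-155 is a microRNA cut from the transcript of its host gene and induced in activated leukocytes and stressed cells. It lowers messages that pair with its seed, among them regulators of cytokine signalling. The precursor gives 2 mature arms, shown here because they are what the mutant lacks. Both sequences are from RefSeq (GRCm38.p6), on the plus strand, at chr16:84714143-84714165 for the 5p arm and chr16:84714182-84714202 for the 3p arm, and the capitals mark the seed, bases 2 to 8.
mmu-miR-155-5p: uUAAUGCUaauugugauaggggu
mmu-miR-155-3p: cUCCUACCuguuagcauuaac
No probe could be matched to the host gene by its accession, so the genotype label was not checked against these arrays.

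Levels are given as log2 of the processed signal minus the 75th percentile of the same array, so that 0 is a fairly bright spot and most genes lie below it. That percentile was 1661.9 to 2388.7 intensity units on the 8 arrays, 68.8% to 81.9% of probes were well above background, and 0 spots were saturated. The principal component that held most of the variance over these 8 arrays (67.8%) put the treated kidneys at -80.5 to -51.2 and the saline kidneys at 61.1 to 73.5. Treated replicate 4 lay closest to saline, at -51.2. As a check of the labelled tissue, Slc34a1, Slc22a6 and Kap of the proximal tubule and Umod of the thick limb were each well above background on all 8 arrays.

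At 72 h, genes of tubular injury, p53 and acute inflammation were higher in miR-155-/- kidneys, and transport genes of the proximal and distal tubule were lower. Of 23743 genes and transcripts tested, 8364 differed from saline at an adjusted p under 0.05 (limma, Benjamini-Hochberg). The 4199 that rose were 17.7% of those tested and the 4165 that fell were 17.5%, and 3313 of all calls were at least 2-fold. With the background set by normexp the counts were 2443 and 2333. The median log2 difference over all genes was -0.02. Log2 differences are given ± SE, with 4 arrays in each group unless a lower n is given. List counts and medians include genes not above background on any saline array. These entered the test only through another group, and their rises have only a lower bound. Slides 1 and 3 held arrays of both groups, and within them 99.6% and 99.7% of the genes called had the same sign, which is no independent check because the calls used these arrays.

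Every tubular injury marker rose, 22 of 22, with a median of 2.36. Havcr1 (Kim-1), a membrane protein shed by injured proximal tubule cells, was at 4.53, 4.09, 4.31 and 3.69 in 72 h kidneys and at -3.22, -3.04, -4.44 and -2.46 in saline kidneys. The groups lay far apart, with replicate 4 the lowest treated array, and the difference was 7.45 ± 0.64 (174-fold, adjusted p = 5.45e-10). Lcn2 (NGAL), an iron-siderophore binding protein released into urine after injury, was at 5.04, 4.65, 5.07 and 4.87 in 72 h kidneys and at -2.0, -1.97, -1.54 and -1.48 in saline kidneys, a 101-fold rise (6.66 ± 0.68). Krt20, a keratin of umbrella cells that appears in damaged tubules, was at 6.16, 5.55, 6.10 and 4.91 in 72 h kidneys against -1.85, -1.17, 0.77 and -1.07 in saline kidneys. Saline replicate 3 was its highest control and still lay well under the treated arrays (6.51 ± 0.66). Spp1 (osteopontin) was at 7.81, 7.20, 7.5 and 7.61 in 72 h kidneys and at 4.49 to 4.73 in saline kidneys (2.88 ± 0.23), and Clu (clusterin), a secreted chaperone, rose by less (1.72 ± 0.21), with levels of 6.65 to 7.40 in 72 h kidneys against 5.05 to 5.53 in saline kidneys. The fibrinogen chains, which the kidney makes little of in health, rose together: Fgg by 5.74 ± 0.61, Fga by 4.25 ± 0.57 and Fgb by 3.70 ± 0.61. Sox9, a transcription factor of regenerating tubule cells, was at -1.25, -1.81, -1.51 and -2.79 in 72 h kidneys and at -6.16 to -5.29 in saline kidneys (3.87 ± 0.50). Timp1, an inhibitor of matrix proteases, spread widely at 72 h (0.98, -0.34, 2.16 and -1.11) but stayed above its saline levels of -5.13 to -3.97 (4.82 ± 0.84). The smallest rises of the list were those of Cd24a (0.93 ± 0.16) and the intermediate filament gene Vim (0.97 ± 0.20).

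Genes of the skin's cornified layer were among the largest rises. Of 14 keratin and cornified envelope genes 11 rose and 0 fell, with a median of 3.45. Sprr1a, a small proline-rich protein that is crosslinked into the cornified envelope, was at 3.16, 2.54, 3.23 and 2.14 in 72 h kidneys and at -3.27 to -1.13 in saline kidneys (4.68 ± 0.50). Sprr2g stood at 2.64, 2.08, 2.86 and 0.80 in 72 h kidneys against -4.91 to -3.72 in saline kidneys (6.56 ± 0.73). For Lce1d, a late cornified envelope gene, treated replicate 4 (-0.04) lay under the other treated arrays (1.25 to 1.51), and all lay above the saline range of -6.78 to -5.10 (7.28 ± 0.84). Sprr1b was not well above background on any saline array and was at least 11.6-fold higher at 72 h. The keratins Krt14, Krt17 and Krt80 did not pass the test (-0.03, 0.22 and -0.25). Copies of the Sprr2 and Lce genes are close in sequence, so that a probe may read more than its own gene.

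Among genes whose arrays did not overlap, large fitted rises were those of Crct1 (7.77 ± 0.77), which lies in the epidermal differentiation complex, Gm10375 (7.72), the germ cell RNA-binding gene Rbmy (7.62), the interleukin-36 gene Il1f6 (7.62 ± 0.63), Havcr1, BC061237 (7.36) and Vgf, a secreted precursor of neuropeptides (7.39 ± 0.94). Of the saline arrays, 3 of 4 measured BC061237 above background and 1 of 4 measured Vgf. At 72 h Gm10375 was at 2.07, 0.99, 2.81 and 0.27 and BC061237 at 1.62, 0.50, 2.32 and -0.12. The levels of these genes followed each other, and whether their probes read the same message was not tested. Sprr2e was not above background on any saline array and was at least 49.1-fold higher, a bound that gives it no rank. Crct1 was at 1.97, 1.32, 2.50 and 0.39 in 72 h kidneys and at -6.87 to -5.58 in saline kidneys. Rbmy, a gene with many near-identical copies, was at 4.16, 2.54, 3.55 and 1.96 in 72 h kidneys and at -4.94 to -4.18 in saline kidneys. Among the fitted falls, those of the major urinary proteins Mup18, Mup17, Mup19, Mup3, Mup20 and Mup4, of Serpina3k and of Immp2l were at -8.69 to -6.19, and each of these genes was well above background on only 1 to 3 of the 4 treated arrays, so that they have no firm order. The Mup proteins carry pheromones and are known chiefly from male liver, and their copies can hardly be told apart by a probe. Mup18 was at -2.81, -6.57, -10.22 and -9.31 in 72 h kidneys, 2 of them well above background, and at 0.14 to 2.47 in saline kidneys (-8.69 ± 1.29). Serpina3k, a serine protease inhibitor, was well above background on 1 of 4 treated arrays (-6.76 ± 0.91).

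**Figure D1:**
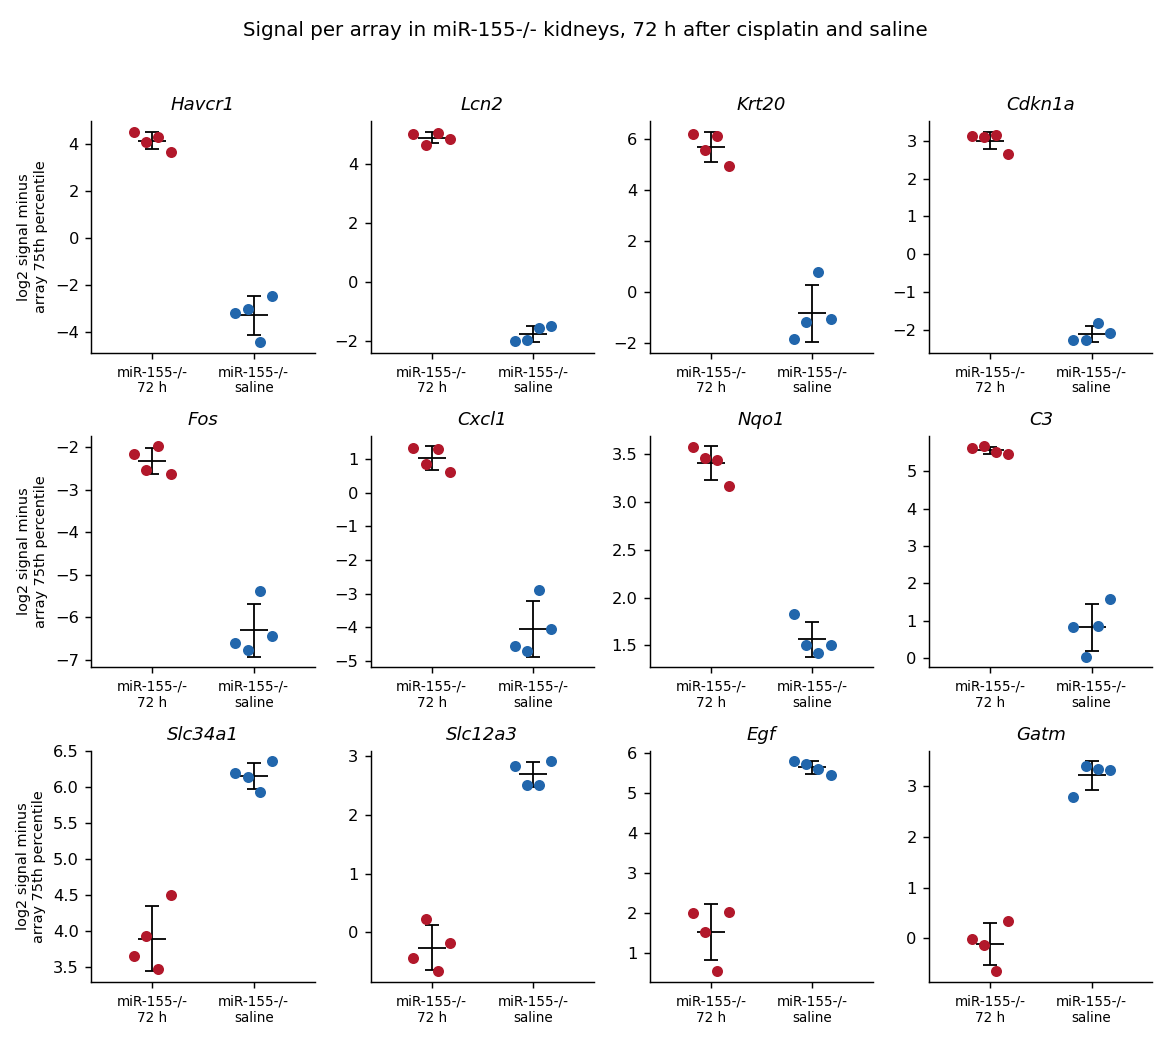
Level of 12 genes on each array (vertical axes, log2 signal minus the array's 75th percentile, each panel on its own scale) in miR-155-/- kidneys 72 h after cisplatin (left) and after saline (right), with the mean and SD of 4 arrays. The 12 genes were chosen for display, so that the lack of overlap between the 2 groups in each panel says nothing about other genes. Slc34a1, Slc12a3, Egf and Gatm are the 4 that are lower at 72 h.

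Of 31 p53 target genes 24 rose and 0 fell (median 1.96). Cdkn1a (p21), which halts the cell cycle, was at 3.12, 3.1, 3.14 and 2.66 in 72 h kidneys and at -2.28, -2.26, -1.82 and -2.07 in saline kidneys (5.11 ± 0.29, 34.6-fold). Psrc1, a microtubule-binding gene, was at 0.14, 0.14, 0.42 and -0.45 in 72 h kidneys against -5.63 to -5.12 in saline kidneys (5.51 ± 0.27). Phlda3, which restrains Akt, had the smallest adjusted p of any list member: it was at 4.81, 4.71, 4.57 and 4.44 in 72 h kidneys and at 0.29 to 0.78 in saline kidneys (4.02 ± 0.16, adjusted p = 1.21e-16). Feedback and stress genes rose with them, with Mdm2, the ligase that degrades p53, at 2.02 ± 0.14 and Gdf15, a circulating stress hormone, at 3.88 ± 0.21. The death genes Bax and Bbc3 (Puma) rose 2.42-fold and 5.25-fold, and the TRAIL receptor gene Tnfrsf10b 7.92-fold. Xpc, Ddb2, Rrm2b and Sesn1, targets with roles in repair and metabolism, did not pass the test (-0.26, 0.25, -0.18 and -0.17).

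Repair genes of crosslinks and bulky lesions divided: 10 of 22 rose and 1 fell (median 0.31), against 17.7% and 17.5% of all genes. Mad2l2, a subunit of the translesion polymerase zeta, was at 2.66, 3.04, 2.84 and 2.61 in 72 h kidneys and at 1.21 to 1.53 in saline kidneys (1.46 ± 0.14). Ercc1, which with Ercc4 cuts the strand beside a lesion, was at 1.4, 0.64, 1.29 and 0.02 in 72 h kidneys and at -1.53 to -1.24 in saline kidneys (2.18 ± 0.35), while Ercc4 itself was at 0.00 ± 0.10 and was not called. Rev1, which works with polymerase zeta, rose by 0.78 ± 0.11.

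Among 23 cell death genes 13 rose and 3 fell (median 0.72), where 17.7% of all genes rose and 17.5% fell. The TWEAK receptor Tnfrsf12a was at 4.85, 4.40, 4.53 and 4.07 in 72 h kidneys and at 0.62 to 0.98 in saline kidneys (3.64 ± 0.28, 12.4-fold). Mlkl, which ruptures the membrane in necroptosis, and Ripk3, the kinase that activates it, rose by 2.47 ± 0.35 and 2.45 ± 0.37, whereas Ripk1, the kinase upstream of both, fell by 0.36. Bcl2l11 (Bim), which triggers apoptosis, was at -4.40, -4.52, -4.49 and -4.79 in 72 h kidneys and at -6.19 to -6.15 in saline kidneys (1.62 ± 0.28), and its opponent Bcl2l1 (Bcl-xL) rose too (1.08 ± 0.13). Bad, Bid and Ripk1 were the 3 that fell, and without saline replicate 1 the number was 1.

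Immediate early genes were still high at 72 h, with 16 of 18 higher and 0 lower (median 2.02). Fosl1, a component of the AP-1 factor, was at 0.30, -0.17, 0.35 and -0.61 in 72 h kidneys and at -7.36 to -4.74 in saline kidneys (6.26 ± 0.71). Fos was at -2.16, -2.53, -1.98 and -2.64 in 72 h kidneys and at -6.61, -6.78, -5.39 and -6.44 in saline kidneys (3.98 ± 0.50). Atf3, a stress-induced repressor, rose 17.1-fold (4.09 ± 0.47) and Myc 5.64-fold (2.49 ± 0.30). Ier3 and the phosphatase gene Dusp1 were not called (0.66 ± 0.36 and 0.01 ± 0.27). The AP-1 letters TGANTCA, searched on both strands in the 250 bases before the start of each gene, were in 0 of the 14 of these genes that had a window, against 6.87% of all 27025 windows.

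Ligands of the EGF receptor family went both ways. Egf, which the distal convoluted tubule makes, fell by 4.12: it was at 2.01, 1.52, 0.54 and 2.03 in 72 h kidneys and at 5.45 to 5.81 in saline kidneys. Areg (amphiregulin) was not above background on any saline array and was at least 19.3-fold higher at 72 h. Hbegf, Nrg1 and Tgfa rose by 1.82 ± 0.48, 1.93 ± 0.36 and 0.83 ± 0.16, and the receptor gene Egfr did not pass the test (0.72 ± 0.29, adjusted p = 0.0528). Of 10 genes tested 4 rose, Areg with its bound among them, and 3 fell, against 17.7% and 17.5% of all genes. The number that fell was 1 without saline replicate 2, without treated replicate 2 and without treated replicate 3.

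Of 25 inflammatory cytokine and adhesion genes 20 rose and 0 fell (median 1.91). Cxcl1, which attracts neutrophils, was at 1.34, 0.86, 1.30 and 0.62 in 72 h kidneys and at -4.54, -4.70, -2.88 and -4.06 in saline kidneys (5.08 ± 0.36, 33.7-fold). Il1f6 (interleukin-36 alpha), a cytokine of epithelial cells, was at 0.12, -0.02, 0.53 and -0.25 in 72 h kidneys and at -8.55 to -6.23 in saline kidneys, 2 of which were well above background. Lif, a cytokine of the interleukin-6 family, rose 14.2-fold (3.83 ± 0.38) and the adhesion molecule Icam1 5.36-fold (2.42 ± 0.22). Ccl2, which recruits monocytes, was at 0.17, -0.76, -0.12 and -1.30 in 72 h kidneys and at -4.62 to -3.80 in saline kidneys (3.62 ± 0.59). Il6 was not above background on any saline array and was at least 4.90-fold higher at 72 h, with treated levels of -6.93 to -3.46. Il1b and Il18, the inflammasome cytokines, did not pass the test (0.39 ± 0.41 and 0.47 ± 0.23). An NF-kB motif (GGGA, any base, then TTTCC, on either strand) stood in 4 of 19 windows of this list (21.1%) and in 0.34% of all windows. Cxcl1 had the smallest adjusted p of those 4. Its 250 bases before the start are shown, from RefSeq (GRCm38.p6), plus strand, chr5:90890995-90891244, with the motif in capitals.
Cxcl1: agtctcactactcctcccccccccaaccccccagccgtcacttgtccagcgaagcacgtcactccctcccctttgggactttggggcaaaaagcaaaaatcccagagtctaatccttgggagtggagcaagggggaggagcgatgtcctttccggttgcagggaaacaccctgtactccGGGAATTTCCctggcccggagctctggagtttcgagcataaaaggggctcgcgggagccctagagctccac

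Acute phase and complement genes had 9 of 14 members up and 0 down (median 1.5). C3, the central complement component, was at 5.63, 5.67, 5.52 and 5.46 in 72 h kidneys and at 0.84, 0.04, 0.87 and 1.58 in saline kidneys (4.74 ± 0.47, 26.7-fold). Saa3 and Saa1, serum amyloid genes, rose by 5.56 ± 0.37 and 4.29 ± 0.46, and Cp (ceruloplasmin), a copper carrier, by 2.89 ± 0.34. Saa3 was well above background on 1 of 4 saline arrays. The complement gene Cfb and the haptoglobin gene Hp were not called (-0.16 and 0.46).

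Interferon-stimulated genes had 13 of 20 members up and 0 down (median 1.03). Ddx58 (RIG-I), a sensor of foreign RNA, was at 1.66, 1.69, 1.54 and 1.84 in 72 h kidneys and at 0.10 to 0.19 in saline kidneys (1.54 ± 0.10). Isg15, a ubiquitin-like modifier, was at 3.08, 2.69, 2.51 and 2.37 in 72 h kidneys and at 0.71, 0.98, 0.54 and 0.50 in saline kidneys (1.98 ± 0.22). Irf7, a factor that drives interferon genes, rose by 2.17 ± 0.27, with 3 saline values because replicate 3 was left out for an outlier flag. Rsad2 and Ifit2 did not pass the test (-0.27 and 0.50). The interferon response element (TTTC, any 2 bases, then TTTC, on either strand) was in 8 of 16 windows, against 3.04% of all windows. Isg15 carried 3 overlapping matches, in capitals in its 250 bases before the start (RefSeq, GRCm38.p6, minus strand, chr4:156200819-156201068).
Isg15: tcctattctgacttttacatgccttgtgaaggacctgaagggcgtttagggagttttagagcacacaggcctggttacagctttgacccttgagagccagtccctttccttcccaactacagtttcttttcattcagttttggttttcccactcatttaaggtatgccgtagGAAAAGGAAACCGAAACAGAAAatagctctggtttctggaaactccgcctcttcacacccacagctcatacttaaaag

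MHC class II genes fell, 6 of 9, and 0 rose (median -1.34). H2-Aa, a chain of the peptide receptor, was at -3.07, -2.36, -2.28 and -2.51 in 72 h kidneys and at -0.73 to -0.33 in saline kidneys (-2.06 ± 0.35). H2-Eb1 fell by 1.72 and H2-Ab1 by 1.43, and Cd74, the invariant chain, was at 0.41, 1.01, 1.05 and 0.63 in 72 h kidneys against 1.98 to 2.26 in saline kidneys (-1.4 ± 0.28). Their master regulator Ciita was not called (-0.66 ± 0.35). Beside these genes, 3 of 15 macrophage and monocyte markers fell and 1 rose, against 17.5% and 17.7% of all genes, with mean levels of -1.71 to -0.99 over the list in 72 h kidneys and -1.05 to -0.96 in saline kidneys. The receptor gene Csf1r was at 2.26, 2.32, 2.27 and 2.33 in 72 h kidneys and at 2.99 to 3.62 in saline kidneys (-1.02 ± 0.16), while the complement genes C1qa, C1qb and C1qc did not pass the test (-0.02, -0.06 and -0.17). Cd14, a coreceptor for endotoxin, was the marker that rose (2.35 ± 0.46). Probes of Csf1r disagreed, with another at 0.00. The part that a change in macrophages has in the fall of class II genes was not tested.

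Nrf2 target and glutathione genes had 15 of 19 members up and 1 down (median 0.83). Nqo1, a quinone reductase, was at 3.57, 3.45, 3.43 and 3.16 in 72 h kidneys and at 1.83, 1.5, 1.42 and 1.51 in saline kidneys (1.84 ± 0.14). Gsta2, a glutathione transferase, was at 6.51, 6.37, 6.38 and 6.44 in 72 h kidneys against 4.74 to 5.0 in saline kidneys (1.52 ± 0.14), with little spread in either group. Hmox1 (haem oxygenase 1) rose 3.59-fold (1.84 ± 0.33), and the export pump Abcc3 5.27-fold (2.40 ± 0.26). The cystine importer Slc7a11 was not above background on any saline array and was at least 3.69-fold higher at 72 h. Me1, malic enzyme, was the member that fell (-1.16 ± 0.11), and the glutathione synthesis genes Gclc and Gclm were not called (0.51 and -0.18).

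In the integrated stress response list 9 of 14 genes rose and 1 fell (median 1.29), while ER chaperone genes fell in 5 of 14 cases and rose in 0 (median -0.33). Psat1, an enzyme of serine synthesis, was at 3.52, 3.97, 4.00 and 3.07 in 72 h kidneys and at 1.53 to 1.79 in saline kidneys (2.02 ± 0.25). Ddit3 (Chop) rose by 1.45 ± 0.22 and Ddit4, an mTOR inhibitor, by 1.53 ± 0.21. Fgf21, a hormone of starvation and stress, was not above background on any saline array and was at least 3.71-fold higher at 72 h, where 3 of 4 arrays measured it. On the chaperone side Hsp90b1 was at 4.17, 3.98, 3.98 and 4.08 in 72 h kidneys and at 4.58 to 4.86 in saline kidneys (-0.63 ± 0.12), and Hspa5 (BiP) did not pass the test (-0.25 ± 0.18). The letters TGATGNAA of a CARE element, at which Atf4 binds, were in 3 of 14 windows of the stress response list (21.4%) and in 3.53% of all windows. They stand reversed and in capitals in Fgf21 (RefSeq, GRCm38.p6, minus strand, chr7:45615491-45615740).
Fgf21: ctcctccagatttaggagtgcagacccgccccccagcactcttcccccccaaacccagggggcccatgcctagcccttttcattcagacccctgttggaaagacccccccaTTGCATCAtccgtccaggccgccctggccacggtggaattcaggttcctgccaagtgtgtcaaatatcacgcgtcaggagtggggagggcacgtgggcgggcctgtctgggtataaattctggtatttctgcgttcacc

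Of 14 genes of cisplatin transport and metal handling 5 rose and 6 fell (median -0.25). Metallothioneins bind metals through their cysteines. Mt2 was at 7.08, 6.53, 6.84 and 6.04 in 72 h kidneys and at 2.73 to 3.01 in saline kidneys (3.74 ± 0.43, 13.3-fold) and Mt1 6.62-fold higher (2.73 ± 0.33), while Mt3 was not called (-0.25 ± 0.10). The other 3 that rose were the export pump Abcc2 (0.82 ± 0.15), Slc31a2 (0.39 ± 0.09) and the glutathione transferase Gstp1 (0.39 ± 0.12). The uptake transporter Slc22a2 (OCT2) was at 3.09, 3.24, 3.17 and 3.21 in 72 h kidneys and at 4.11 to 4.42 in saline kidneys (-1.11 ± 0.16). Slc47a1 (MATE1), which passes organic cations to the urine, fell by 1.23, and the copper importer Slc31a1 (CTR1) by 0.66. Ggt1 and Dpep1, brush border enzymes that break down glutathione conjugates, fell by 1.48 and 1.83. The copper ATPases Atp7a and Atp7b were not called (0.34 and -0.25).

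Proximal tubule genes fell in 23 of 33 cases and rose in 0 (median -0.80), with mean list levels of 2.96 to 3.47 in 72 h kidneys and 4.06 to 4.39 in saline kidneys. Slc7a13, an aspartate and glutamate transporter of the straight segment, was at 0.11, -0.39, -1.52 and -0.46 in 72 h kidneys and at 3.83 to 4.19 in saline kidneys (-4.63 ± 0.34). Slc34a1, the main phosphate transporter, was at 3.65, 3.93, 3.47 and 4.50 in 72 h kidneys, with replicate 4 the highest, and at 6.19, 6.14, 5.93 and 6.36 in saline kidneys (-2.27 ± 0.22). The inositol oxygenase Miox fell by 2.56, the organic anion transporter Slc22a7 by 2.52 and Gatm, which makes the precursor of creatine, by 3.33. The endocytic receptors Lrp2 (megalin) and Cubn (cubilin) fell by 1.73 and 0.78. Lrp2 had 3 saline values, because replicate 3 was left out for an outlier flag. Hnf4a, a factor that maintains proximal identity, fell by 1.04. Pck1, Slc13a1 and Cyp27b1 did not pass the test (0.75, 1.05 and 1.07).

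Of genes of the thick limb and distal convoluted tubule 12 of 17 were lower and 0 higher (median -1.33). Slc12a3, the thiazide-sensitive cotransporter, was at -0.43, 0.23, -0.66 and -0.18 in 72 h kidneys and at 2.51 to 2.92 in saline kidneys (-2.96 ± 0.25). Pvalb, a calcium buffer of the same cells, fell by 4.17 and the magnesium channel Trpm6 by 2.12. Kl (klotho), a coreceptor for FGF23, was at 1.23, 1.33, 1.11 and 1.27 in 72 h kidneys and at 3.44 to 3.78 in saline kidneys (-2.32 ± 0.28). Umod (uromodulin), the most typical thick limb product, was not called (-0.62 ± 0.30). Collecting duct genes fell in 4 of 19 cases (Slc4a1, Atp6v1b1, Rhcg and Rhbg), a share near the 17.5% of all genes, and rose in 0. Other acid-base genes of the list, Atp6v1g3, Atp6v0d2, Slc26a4, Foxi1 and Slc4a9, were not called. The water channel Aqp2 was at 0.00 ± 0.36. Without saline replicate 1 or 2, or treated replicate 1 or 2, 2 of the 19 fell.

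Metabolic genes divided by pathway. Of 25 fatty acid oxidation and PPAR alpha genes 11 rose and 2 fell (median 0.23), against 17.7% and 17.5% of all genes. Plin2, which coats lipid droplets, was at 6.08, 5.70, 6.15 and 5.30 in 72 h kidneys and at 2.36 to 2.72 in saline kidneys (3.28 ± 0.38), and the PPAR alpha target Cyp4a14 rose by 3.47 ± 0.70. Acadm and Acads, dehydrogenases of medium and short chains, fell by 0.88 and 0.74. Of 15 oxidative phosphorylation genes 12 fell and 0 rose, each by under 1 (median -0.41), led by Ndufs1 of complex I, at 3.84, 3.98, 3.96 and 4.19 in 72 h kidneys and 4.74 to 4.95 in saline kidneys (-0.89 ± 0.11). Cholesterol synthesis genes fell in 12 of 19 cases and rose in 0 (median -0.53). Idi1, an isomerase of the isoprenoid units, was at 1.65, 1.28, 1.29 and 1.22 in 72 h kidneys and at 3.90 to 4.17 in saline kidneys (-2.67 ± 0.22), and Cyp51, which demethylates lanosterol, fell by 2.77. The regulator Srebf2 was not called (-0.13 ± 0.14).

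**Figure D2:**
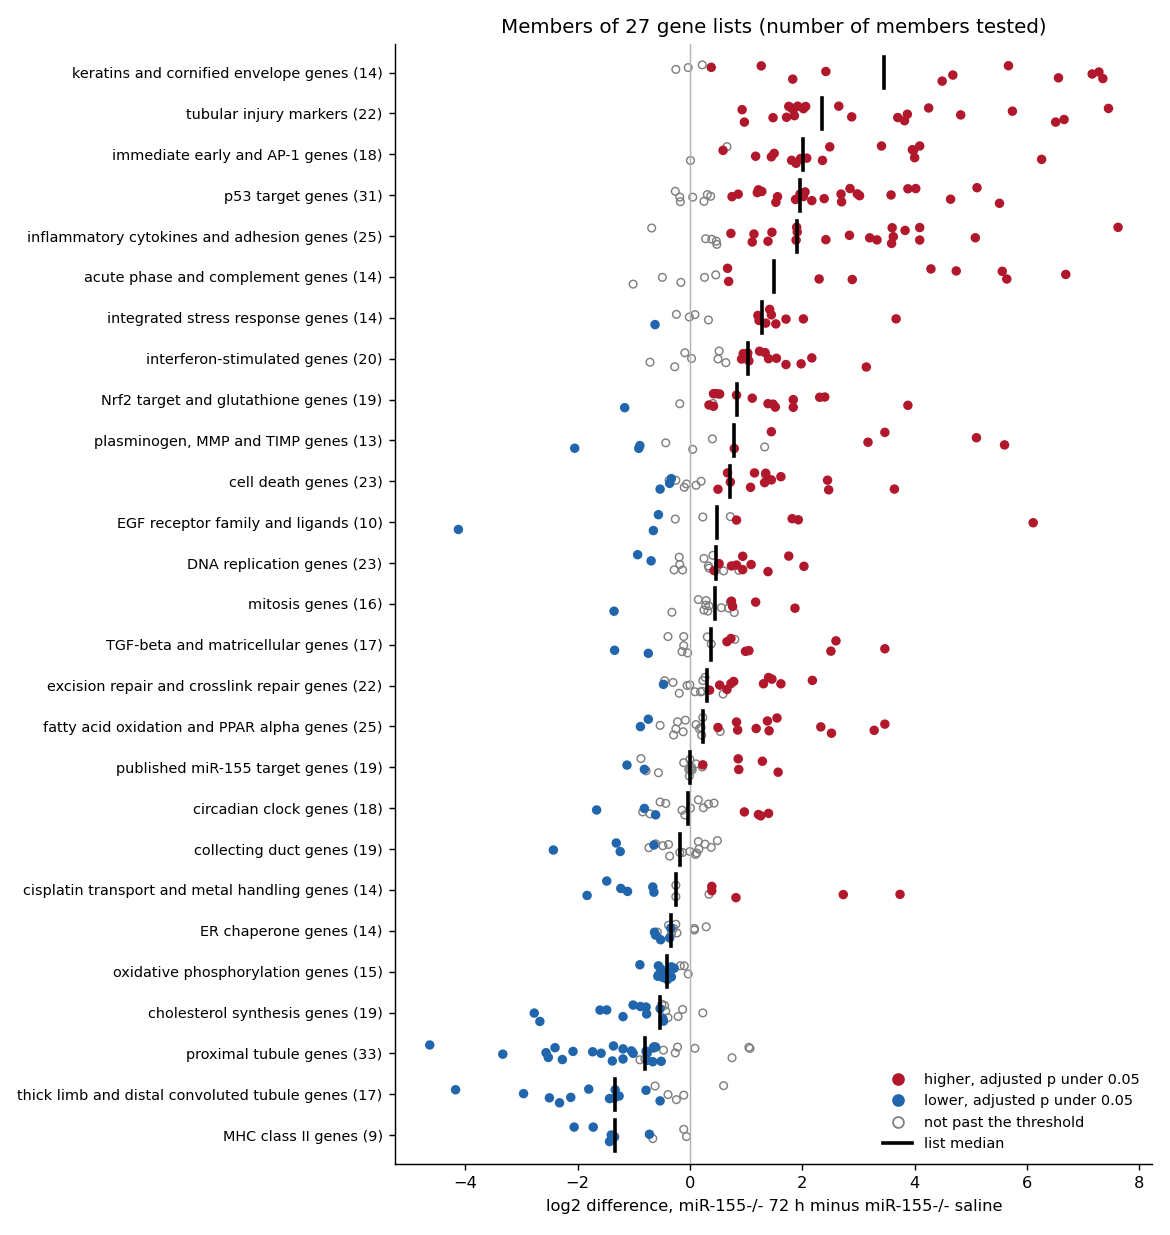
Log2 difference, 72 h minus saline, of each tested member of 27 gene lists in miR-155-/- kidneys (horizontal axis), with filled points for adjusted p under 0.05, open points for the others and a black bar at the list median. Injury markers (median 2.36) and keratin and cornified genes (3.45) lie to the right of 0, and MHC class II genes (-1.34) and thick limb and distal tubule genes (-1.33) to the left.

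DNA replication genes had 10 of 23 members up and 2 down (median 0.46), and mitosis genes had 4 of 16 members up and 1 down (median 0.45). Over all genes, 17.7% rose and 17.5% fell. Uhrf1, which carries methylation marks through replication, was at -0.84, -1.75, -1.14 and -2.33 in 72 h kidneys and at -3.70 to -3.43 in saline kidneys (2.03 ± 0.29), and Rrm2, the regulated subunit of ribonucleotide reductase, rose 3.38-fold (1.76 ± 0.27). The mitosis counts turned on single animals. Top2a, which untangles sister chromatids, was at -3.84, -3.55, -3.38 and -5.37 in 72 h kidneys and at -5.57 to -4.75 in saline kidneys, so that treated replicate 4 lay within the saline range and the other 3 above it (1.17 ± 0.38). Mki67, a marker of dividing cells, was at -1.67, -1.61, -1.62 and -3.26 in 72 h kidneys and at -2.53 to -2.02 in saline kidneys, with replicate 4 under all controls, and did not pass the test (0.29 ± 0.32). Without treated replicate 4, 7 mitosis genes rose. The number was 1 without treated replicate 2 or 3, and 2 without treated replicate 1 or saline replicate 1 or 3. Within slide 1, which held replicate 4, the median of the mitosis genes was -0.46, and within slide 3 it was 0.99. Tpx2, a spindle factor, rose by 1.87 on the probe used, while its other probe was at -0.24. Cenpe, a kinetochore motor, fell by 1.35.

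Of 17 TGF-beta and matricellular genes 7 rose and 2 fell (median 0.38), where 17.7% of all genes rose and 17.5% fell. They include the activin chain Inhbb at 3.47 ± 0.40, the matricellular Ccn1 (Cyr61) at 2.51 ± 0.25 and Tgfb1 at 0.99 ± 0.18. Leaving out an array, 1 fell without treated replicate 2 or saline replicate 3 or 4 and 0 without treated replicate 1. Of 13 plasminogen, MMP and TIMP genes 6 rose and 3 fell, against the same shares of all genes. Mmp10, a matrix protease measured above background on 1 of 4 saline arrays, rose by 5.60 ± 0.70. Of 18 clock genes 4 rose and 3 fell, shares near the 17.7% and 17.5% of all genes, with Per1 (1.4 ± 0.23) and Nr1d2 (-0.81 ± 0.15) among them, and without saline replicate 2 the number that rose was 2. Arntl, the core activator, was at 0.01 ± 0.23.

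Published targets of miR-155 showed no common direction between saline and 72 h. Both groups lack miR-155, so that this comparison cannot show an effect of its loss. Of 19 tested 5 rose and 2 fell (median 0.01), against 17.7% and 17.5% of all genes. Their difference from the wild type response had a median of 0.05, with 10 genes above 0, 9 below and 0 called. Cebpb, a transcription factor of acute inflammation, was at 4.09, 3.74, 4.01 and 3.22 in 72 h kidneys and at 1.72 to 2.73 in saline kidneys (1.57 ± 0.20), and it rose as well in wild type kidneys (1.65). Socs1, an inhibitor of cytokine receptors, rose by 0.87 ± 0.32, and Inpp5d (Ship1) and Bach1 were not called (0.00 ± 0.22 and 0.11 ± 0.14). Without saline replicate 2 or 3, or treated replicate 1 or 3, 3 rose, and without saline replicate 4 or treated replicate 1, 1 fell.

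Markers of other cell types moved as follows, where 17.7% of all genes rose and 17.5% fell. Of 8 red cell genes 7 fell (median -4.18), with mean list levels of -6.44 to -3.90 in 72 h kidneys and -2.37 to -1.27 in saline kidneys. The globin gene Hba-a1 was at -3.00, -3.54, -1.57 and -4.54 in 72 h kidneys and at 0.51 to 2.07 in saline kidneys (-4.26 ± 1.03), and its near-identical copies cannot be separated. Among 9 neutrophil markers 3 rose, the calprotectin genes S100a8 and S100a9 and the secreted Retnlg (3.44 ± 0.69, 3.42 ± 0.65 and 4.20 ± 0.90), while the granule genes Mpo, Elane, Camp and Ltf did not pass the test (-0.07, -0.29, 0.10 and -0.62). Retnlg was well above background on 2 of 4 saline arrays. Mean levels over that list were -3.26 to -1.92 in 72 h kidneys and -4.29 to -3.60 in saline kidneys. Lymphocyte markers fell in 4 of 12 cases (Cd3d, Gzma, Cd2 and Cd8a, of which Cd3d was well above background on 3 and Cd8a on 2 of 4 treated arrays), a number that was 2 without saline replicate 3 or treated replicate 1 or 4, and 1 without saline replicate 4. Endothelial markers fell in 4 of 12 cases (Ehd3, Emcn, Tek and Tie1), or 2 without saline replicate 2 or 3 or treated replicate 1. With 2 of 12 the share was near the 17.5% of all genes. Of 14 fibroblast and matrix markers 1 fell (Lum) and 0 rose. Of 9 podocyte markers 1 rose, Nphs1 (0.53 ± 0.18), and 1 fell, of 6 adipocyte markers the lipid droplet gene Cidec rose (4.94 ± 0.67), of 3 adrenal markers Cyp21a1 rose (0.74), and the muscle marker tested, Acta1, was at 0.01. The rises of Nphs1 and Cyp21a1 and the fall of Lum each lost the call when some 1 array was left out.

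The wild type kidneys at 72 h, set against their own saline controls, share no array with the comparison above. There 6018 genes were called, 12.5% of those tested higher and 12.8% lower, and 4882 were called in both genotypes, which is 58.4% of the calls in miR-155-/- kidneys and 81.1% of those in wild type kidneys. Of these 4860 had the same sign and 22 did not. Across all 23743 genes the differences of the 2 genotypes had a Pearson r of 0.84 and a Spearman rho of 0.77, as a description, since genes are not independent. Over the genes called in both, the median size of the log2 difference was 0.98 in miR-155-/- kidneys and 0.84 in wild type kidneys.

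The test of the difference between the responses called 50 genes, 41 higher in miR-155-/- (0.173% of those tested) and 9 lower (0.0379%). Of the 23743 tested, 1797 had an unadjusted p under 0.05 (limma), where chance alone gives about 1 in 20. The counts moved with the processing, to 3 and 2 with normexp and to 817 and 399 with array weights. Ccna2 (cyclin A2), which drives S phase and entry into mitosis, was at -3.05, -2.96, -2.97 and -4.07 in miR-155-/- kidneys at 72 h and at -3.96 to -3.55 in miR-155-/- saline kidneys. In wild type kidneys it was at -4.84 to -4.16 at 72 h and at -3.1 to -2.18 after saline. It thus fell in wild type kidneys (-1.65) and was not called in miR-155-/- kidneys (0.46), a difference of 2.11 ± 0.34 (limma, adjusted p = 0.00293). Cenph, a kinetochore protein, was at -4.95 to -3.82 in miR-155-/- kidneys at 72 h against -6.51 to -5.77 after saline, and at -5.97 to -5.20 in wild type kidneys at 72 h against -5.32 to -4.54 after saline (2.34 ± 0.36). Rad51ap1, which acts in strand exchange, Pole, the leading-strand polymerase, and Lmnb1 (lamin B1), of the nuclear envelope, differed by 2.07 ± 0.31, 1.21 ± 0.19 and 1.05 ± 0.16. Lmnb1 was at -2.60 to -2.21 in miR-155-/- kidneys at 72 h against -2.97 to -2.72 after saline, and at -3.07 to -2.73 in wild type kidneys at 72 h against -2.44 to -2.13 after saline. For Ccna2, Cenph, Rad51ap1, Pole and Lmnb1, as for S100a4 and Loxl4, the saline mean was lower in miR-155-/- than in wild type kidneys, and for Gsta2 it was higher (4.91 against 3.88), so that the difference between responses holds a difference between the controls too.

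The other genes named by the smallest adjusted p were S100a4, a calcium-binding protein of motile cells (1.59 ± 0.25), Loxl4, which crosslinks collagen (2.69 ± 0.45), and Gsta2 (-1.26 ± 0.20). Gsta2 rose in both genotypes: it was at 6.37 to 6.51 in miR-155-/- kidneys at 72 h against 4.74 to 5.0 after saline, and at 6.45 to 7.08 in wild type kidneys at 72 h against 3.77 to 4.13 after saline. Gm10639, also called, moved much as Gsta2 did, by 1.81 in miR-155-/- and 2.97 in wild type kidneys (-1.17 ± 0.20). Whether the probes of both genes read the same message was not tested. S100a4 was at -0.36 to 0.06 in miR-155-/- kidneys at 72 h against -1.28 to -0.91 after saline, and at -1.38 to -1.0 in wild type kidneys at 72 h against -0.74 to -0.34 after saline. Loxl4 was at -3.51 to -3.16 in miR-155-/- kidneys at 72 h against -5.60 to -4.45 after saline, and at -5.21 to -4.83 in wild type kidneys at 72 h against -4.32 to -3.26 after saline. The neutrophil genes S100a8 and S100a9 were also called (4.94 ± 0.97 and 4.76 ± 0.91), and here the wild type saline kidneys were uneven. S100a8 was at -2.58, -3.43, -1.23 and -3.93 in miR-155-/- kidneys at 72 h and at -6.74 to -5.52 after saline. In wild type kidneys it was at -5.29 to -4.10 at 72 h and at -5.30, -2.25, -2.89 and -2.93 after saline, 3 of which lay above every treated wild type array.

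**Figure D3:**
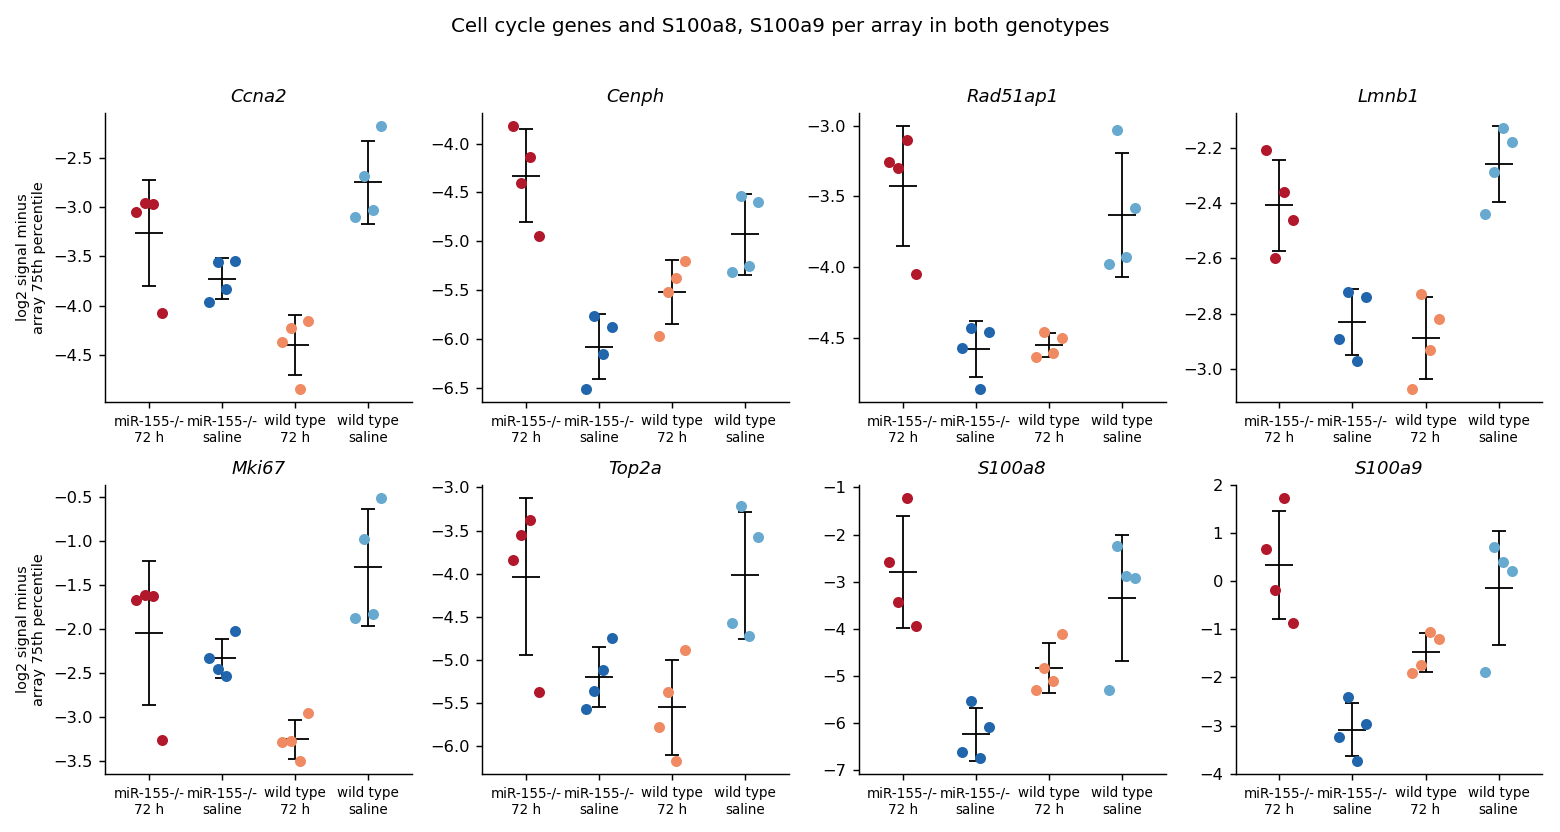
Level of 6 cell cycle genes and of S100a8 and S100a9 on each array (vertical axes, log2 signal minus the array's 75th percentile, each panel on its own scale) in 4 groups, with the mean and SD of 4 arrays. Treated miR-155-/- replicate 4 is the lowest of its group in 7 of the 8 panels, all but Lmnb1.

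By list, 5 of 16 mitosis genes were called higher in miR-155-/-: Top2a, Ccnb1, Mki67, Kif20a and Tpx2, whose probes disagreed as given above. All 16 differed in that direction and the median was 1.78, against -0.04 over all genes. Wild type kidneys had 12 of the 16 lower at 72 h and 0 higher, with a median of -1.21. Of 23 replication genes 3 were called higher, with a median of 0.61. The mean level of the mitosis list was -2.98, -2.92, -2.98 and -4.19 in miR-155-/- kidneys at 72 h and -3.84 to -3.49 after saline, and -4.33 to -3.97 in wild type kidneys at 72 h against -3.36 to -2.36 after saline. The saline levels were lower in miR-155-/- than in wild type kidneys, so that the median of 1.78 holds a difference between the controls too. These calls rest on few animals. Without treated miR-155-/- replicate 4, 11 mitosis genes and 160 genes in all were called, among them all 50. The number of mitosis genes called was 0 without treated miR-155-/- replicate 1, 2 or 3, treated wild type replicate 1 or 3, miR-155-/- saline replicate 1 or wild type saline replicate 2, and 8 without wild type saline replicate 1. It was 1 without wild type saline replicate 4, 2 without miR-155-/- saline replicate 2 or 3 or treated wild type replicate 2, and 3 without miR-155-/- saline replicate 4. In all these fits the median stayed between 1.5 and 2.03.

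All 22 injury markers differed in the same direction, with a median of 1.28, and 1 was called: Vim, at 1.42 to 2.24 in miR-155-/- kidneys at 72 h against 0.75 to 1.10 after saline, and at 0.73 to 0.91 in wild type kidneys at 72 h against 0.93 to 1.31 after saline (1.31 ± 0.28). Mean levels of the injury list after saline were -0.71 to -0.44 in miR-155-/- and -0.44 to -0.19 in wild type kidneys. The median of 1.28 thus holds a difference between the controls too. Havcr1 rose by 5.75 and Lcn2 by 5.40 in wild type kidneys, and neither was called different from miR-155-/- (interaction adjusted p = 0.714 and 0.864). The fall of proximal tubule genes had a median of -0.80 in miR-155-/- and -0.29 in wild type kidneys, with 32 of 33 differences below 0 and 0 called. p53 targets had a median of 1.96 in miR-155-/- and 1.90 in wild type kidneys, and 0 of 31 were called in the test of the difference. Fibroblast and macrophage markers fell in 10 of 14 and 12 of 15 cases in wild type kidneys, and in 1 and 3 cases in miR-155-/- kidneys. They gave 0 calls in the test of the difference, with medians of 0.75 and 0.81 and with 14 of 14 and 14 of 15 differences above 0. Mean levels of the fibroblast list after saline were -0.33 to 0.35 in miR-155-/- and -0.15 to 0.41 in wild type kidneys. Those of the macrophage list were -1.05 to -0.96 and -1.05 to -0.30. In Dtl, a cell cycle ubiquitin ligase adaptor called in that test (3.08 ± 0.52), the E2F letters TTTGGCGC end the 250 bases before the start (RefSeq, GRCm38.p6, minus strand, chr1:191575545-191575794). Dtl was chosen as the called gene with that match. The letters TTTNGCGC or TTTCCCGC, on either strand, were in 5 of 17 windows of replication genes (29.4%), 1 of 14 windows of mitosis genes (7.1%), 1 of 33 windows of the genes called in the test of the difference, and 2.05% of all windows.
Dtl: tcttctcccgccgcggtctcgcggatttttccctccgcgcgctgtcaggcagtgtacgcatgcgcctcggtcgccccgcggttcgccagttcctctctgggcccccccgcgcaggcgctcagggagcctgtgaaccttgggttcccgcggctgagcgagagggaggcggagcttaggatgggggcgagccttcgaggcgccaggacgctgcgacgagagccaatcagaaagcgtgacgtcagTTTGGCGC

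**Figure D4:**
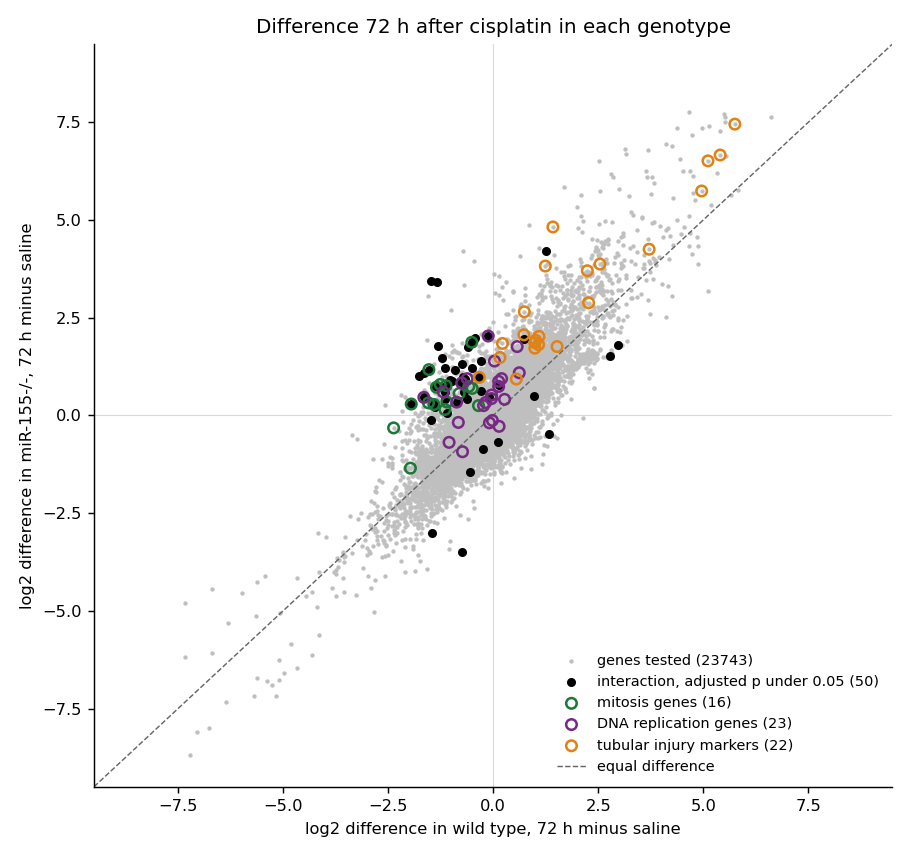
Log2 difference, 72 h minus saline, of 23743 genes in wild type (horizontal axis) and in miR-155-/- kidneys (vertical axis), with the 50 genes called in the test of the difference in black and 3 lists ringed. Mitosis genes lie above the dashed line of equal difference, mostly left of 0 in wild type kidneys.

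Against miR-155-/- kidneys of 48 h, 1483 genes differed at 72 h, 751 higher (3.16% of those tested) and 732 lower (3.08%). The counts were 357 and 325 without 72 h replicate 3, 442 and 353 without 72 h replicate 2, and 10 and 6 when the fit held only these 2 groups. Without 72 h replicate 4, 484 were lower. Fatty acid oxidation and PPAR alpha genes were higher at 72 h in 12 of 25 cases and lower in 0 (median 0.59, against 0 over all genes). Cyp4a14, a fatty acid hydroxylase, was at 5.18, 6.16, 5.93 and 5.88 at 72 h, against 2.02, 3.52, -0.03 and 2.82 at 48 h (3.71). At 48 h, replicate 3 stood apart from its group, at 121 on the main component over all 32 arrays. Without it the list count was 12 and its median 0.65, and 1047 genes were called, 764 of them among the 1483.

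Injury markers were higher at 72 h than at 48 h in 8 of 22 cases (median 0.77), or 5 without 72 h replicate 3, among them Clu, at 6.65 to 7.40 against 5.99 to 6.07 at 48 h (1.01), Spp1, at 7.20 to 7.81 against 6.31 to 6.95 (0.96), and Fgg (2.76). Acute phase genes were higher in 4 of 14 cases (median 0.75), with Saa1 at 1.0 to 2.54 at 72 h against -1.86 to -0.24 at 48 h (2.54). No list member of the p53 targets was higher and Ei24 was lower (-0.40), with a list median of -0.12. Immediate early genes had 0 of 18 called and a median of -0.31. Among the genes with the smallest adjusted p were Slco2a1, a prostaglandin transporter (1.22), Atg7, of autophagy (0.98), Slc5a10, a mannose and fructose transporter (1.58), Ascl3 (-0.90), the secreted glycoprotein Lrg1 (2.63) and Tmem123 (0.68). For Atg7 and Slc5a10 the 48 h arrays lay under all saline arrays and the 72 h arrays overlapped them: Atg7 was at 0.42 to 0.73 at 72 h and -0.51 to -0.20 at 48 h, with 0.42 to 0.66 after saline, and Slc5a10 at 4.18 to 5.10 at 72 h and 2.86 to 3.39 at 48 h, with 4.21 to 4.85 after saline. Lrg1 was at 2.83 to 3.79 at 72 h and 0.14 to 1.16 at 48 h, with -1.52 to -0.89 after saline.

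**Figure D5:**
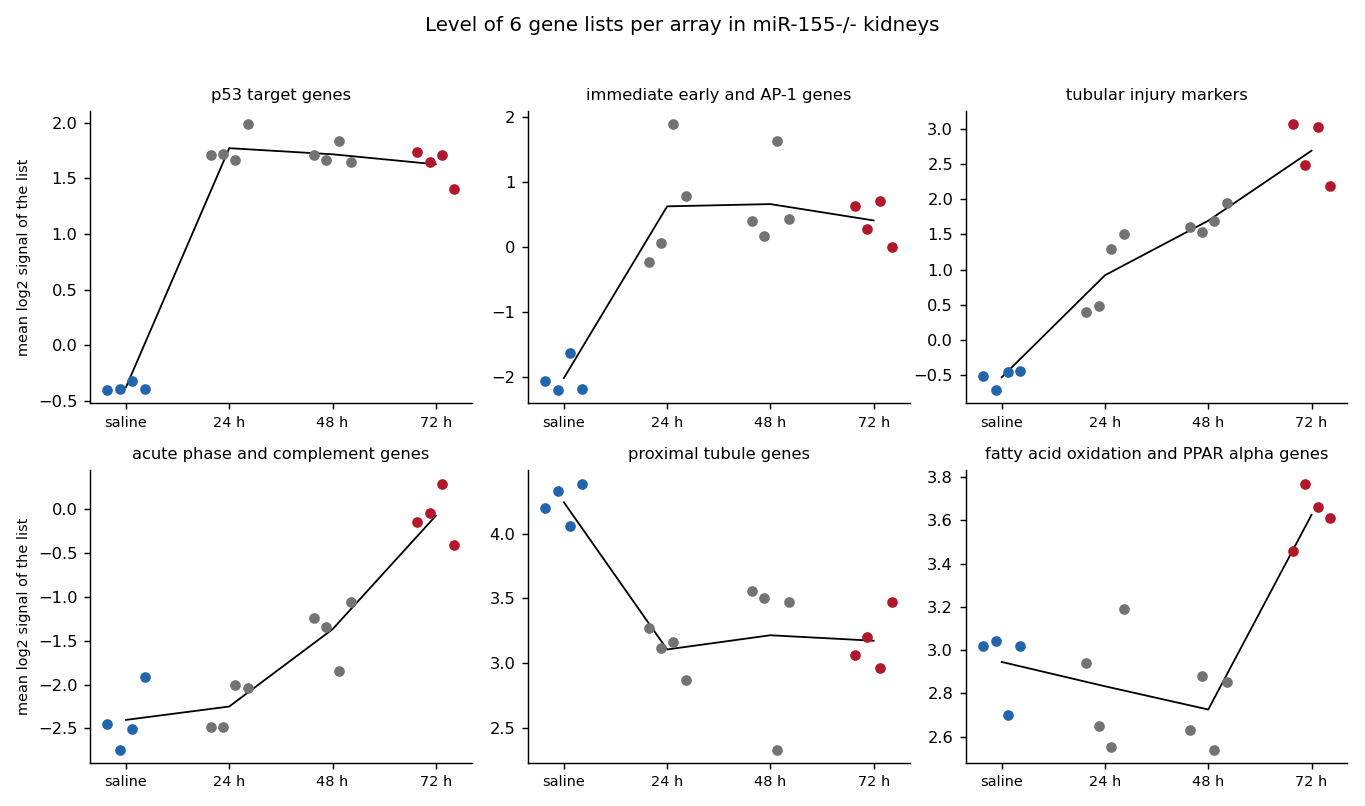
Mean log2 level of the tested members of 6 gene lists on each array of miR-155-/- kidneys (vertical axes, each panel on its own scale) after saline and at 24, 48 and 72 h, with a line through the group means. Injury markers are at -0.71 to -0.44 after saline and 2.19 to 3.07 at 72 h, and proximal tubule genes at 4.06 to 4.39 after saline and 2.96 to 3.47 at 72 h.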

How the data were processed

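RNA of whole kidney was hybridised to 1-colour Agilent mouse arrays, 32 in all, 4 for each of 8 groups of genotype and time. Per the file headers, Agilent Feature Extraction 10.7.3.1 gave the deposited intensity of each spot (the processed signal). The headers also hold statistics of a background subtraction and of detrending fits, and the 75th percentiles differed between arrays. A deposited value table holds the same intensity multiplied by 1 factor per array, whose choice by the authors no header or label states. Here log2 of the intensity minus the 75th percentile of the array was taken, outlier-flagged spots were left out (970 missing values among genes tested), spots of a probe were averaged and the brightest probe stood for its gene. Of 39429 probes 27234 had 1 gene symbol and 12195 had none in the annotation used, and unnamed probes entered the tests. A gene was tested if some group had it well above background on each of its 4 arrays, which 23743 of 32451 were, with at least 3 values in every group, so that a dim gene could enter through the group where it was high. Of 624 list members 592 were tested.

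All arrays entered limma 3.58.1 (R 4.3.3) as 8 group means with eBayes (trend), 24 residual degrees of freedom, two-sided tests and Benjamini-Hochberg adjustment over all genes tested. A signal not above background on any array of a group gave a bound, "at least N-fold", from the lowest signal well above background on each array. The number of arrays limits the precision. Members and lists were chosen with earlier results of these data known. Named genes were a panel of 11, the 8 largest rises and falls whose arrays did not overlap, up to 4 called members of each list by adjusted p, and the 8 smallest adjusted p of each other comparison, some of which are not reported here. Other list members, and genes given as not called, were picked after their values were seen. The steps were tested on simulated data. Promoter windows were matched by symbol to RefSeq (GRCm38.p6). Alternatives were other background, scaling, filter, probe and block settings, array weights, and leaving out each array. Normexp used the median spot and background signals in place of the planned mean signal. A scan day block was added after seeing the data.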

Additional observations from a re-analysis of the deposited data

Results flagged for a closer look

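Among 373 groups of 4 values tested over named genes and list levels, 27 had 1 array far from the other 3 by Dixon's test, where chance alone gives about 1 in 20, or 18.6. In treated miR-155-/- kidneys replicate 4 stood low, with Cdkn1a at 2.66 (others 3.1 to 3.14) and Atf3 at 0.48 (others 1.0 to 1.08). It also had Sprr2e at -3.07 (others -1.88 to -1.72) and Lce1d at -0.04 (others 1.25 to 1.51). It also had Mlkl at -1.86 (others -0.97 to -0.90) and Tgfa at -4.40 (others -4.02 to -4.00). It also had the mitosis list at -4.19 (others -2.98 to -2.92). Treated replicate 1 stood apart, with Idi1 at 1.65 (others 1.22 to 1.29) and Ehd3 at -0.81 (others -0.05 to 0.01). It also had the EGF receptor list at -1.23 (others -1.56 to -1.51) and the adrenal marker list at -5.90 (others -5.40 to -5.35). Treated replicate 2 had Me1 at 4.22 (others 3.89 to 3.94). Treated replicate 3 had Ggt1 at 3.54 (others 3.78 to 3.82) and Hmgcs1 at 4.35 (others 4.70 to 4.73). It also had the cholesterol synthesis list at -0.17 (others 0.00 to 0.01). After saline, replicate 1 had Rrm1 at -0.94 (others -0.86 to -0.84) and Retnlg at -9.87 (others -7.89 to -7.68). It also had the ER chaperone list at 2.62 (others 2.33 to 2.34). Saline replicate 2 had Hbb-b2 at -1.07 (others -2.08 to -1.91). Saline replicate 3 had Cd74 at 1.98 (others 2.22 to 2.26) and Ddit3 at -1.13 (others -1.52 to -1.48). It also had Rrm2 at -1.59 (others -0.98 to -0.97) and the p53 target list at -0.32 (others -0.40 to -0.39). It also had the fatty acid oxidation list at 2.70 (others 3.02 to 3.04). Saline replicate 4 had Slc4a1 at 0.32 (others 0.94 to 1.04) and the cell death list at -1.55 (others -1.61 to -1.60). It also had the lymphocyte marker list at -3.06 (others -3.55 to -3.52).

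The test of the difference between the genotypes at 72 h called 50 genes, and the 8 with a symbol and the smallest adjusted p were flagged. Their responses in miR-155-/- minus wild type were 1.05 for Lmnb1, 2.11 for Ccna2, 2.34 for Cenph, 1.59 for S100a4, 2.07 for Rad51ap1, 1.21 for Pole, -1.26 for Gsta2 and 2.69 for Loxl4. With normexp the test called 5 genes in all, and the saline means of the 8 genes differed between the genotypes as given above.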

How the results depend on the processing

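Across 22 other settings for the 72 h against saline counts, 4199 genes higher and 4165 lower moved by over 1.5 times in 1: background by normexp gave 2443 and 2333. Leaving out 1 array gave 3515 to 4286 higher and 3594 to 3953 lower. The test of the difference between genotypes (41 higher, 9 lower) was less stable: it gave 3 and 2 under normexp, 96 higher under quantile normalization, 5 lower under median scaling, 26 higher with no filter, 134 and 19 with a slide block, 188 and 24 with a random slide block, 817 and 399 with array weights, 446 and 226 with only the compared groups, and 9 (without miR-155-/- 72 h replicate 1 or 3, or wild type 72 h replicate 1) to 145 higher and 3 to 15 lower with 1 array left out, both highest without miR-155-/- 72 h replicate 4. The 72 h against 48 h counts (751 and 732) were 257 and 102 under normexp, 382 lower under median scaling, 1156 and 1267 with a random slide block, 1983 and 2449 with array weights, 10 and 6 with only the compared groups, and 357 to 918 and 325 to 927 with 1 array left out, both lowest without 72 h replicate 3. Of the named genes 2 reversed: Cd8a at 0.09 under normexp and Ifih1 at -0.01 as the mean over probes. Under normexp the median of all genes was 0.184 for 72 h against saline, 0.166 for the difference between genotypes and -0.137 for 72 h against 48 h. Of 4260 values of named genes under other settings 90 lost and 8 gained the call. The cause was not tested. Replicate numbers were not shown to pair the animals: deviations of same-numbered arrays correlated at 0.25, 0.05, 0.29 and -0.47, and 1 of 4 matched best with its own number. With a replicate block the 72 h counts were 4231 and 4175, those of the difference 25 and 5, and those against 48 h 760 and 700.

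Genes not above background in a group have only a bound, and 4 arrays a group limit the precision of every value.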
